A study of Mus musculus with 8 samples.

Results

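Gene expression was compared between Ikaros-deficient and wild-type early T cell precursors that had both received a gamma-secretase inhibitor. The comparison took the 2 arrays of IkL/L DN3 cells treated with the inhibitor (IkL/L GSI) and the 2 arrays of WT DN3 cells treated with it (WT GSI), 4 of the 8 arrays of the series. Every gene outside chromosomes X and Y was kept, which gave 17405 of the 18193 genes tested. The remaining 4 arrays, 2 of WT and 2 of IkL/L cells given the vehicle DMSO, entered the same model and supplied the genotype difference without inhibitor.

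Lineage-negative thymocytes of each genotype had been cultured on OP9 DL1, mouse stroma engineered to display the Notch ligand Delta-like 1. They were exposed for 16 h to MRK-003, a gamma-secretase inhibitor, or to DMSO, and DN3 cells (Lin-CD44-CD25+) were sorted. The labels give the dose of MRK-003 as 5 mM, which could not be checked and may carry a slip in the unit. IkL/L mice carry a hypomorphic Ikzf1 allele with a lacZ insertion, so their cells retain some Ikaros. The labels give no age, sex or strain for the mice. The labels do not tie the replicates to separate mice or cultures. The p-values therefore weigh differences against the scatter of these particular samples, which could be technical.

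Gamma-secretase cleaves ligand-bound Notch receptors and frees the intracellular domain, which binds RBPJ on DNA and turns on target genes. DN3 thymocytes depend on this signal for survival and for assembling the pre-T cell receptor. Ikaros is a zinc finger DNA-binding protein that represses many genes in lymphocytes, among them Notch targets, and that can also activate genes. MRK-003 is used to block the cleavage, and the genotype difference is read here in its presence.

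The sorted cells carried T lineage transcripts. On the 4 GSI arrays the log2 level was 12.21 to 12.91 for Cd3g, a CD3 chain, 12.34 to 12.95 for the recombinase gene Rag1, and 13.11 to 13.46 for Bcl11b, a T lineage commitment factor. Array medians over all probe sets lay between 5.25 and 5.33. Cd44 lay at 5.57 to 7.18, and Cd8a at 6.21 to 8.43, with its highest level on IkL/L GSI replicate 1. Il2ra, which encodes CD25, lay at 9.42 to 9.73. Cd4 was at 6.11 and 6.56 in WT GSI and at 7.88 and 7.36 in IkL/L GSI. Ptcra, a pre-T cell receptor gene, was at 9.46 and 9.44 against 8.42 and 8.37.

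WT GSI replicate 1 stood apart from WT GSI replicate 2. Fos, an immediate early gene, was at a log2 level of 12.72 on the first and 6.27 on the second, the immediate early gene Klf4 at 10.46 and 5.33, and the interferon-stimulated gene Ifit3 at 10.7 and 6.9. The mean log2 level of 29 stromal markers was 8.24 on WT GSI replicate 1 and 6.65 on replicate 2, against 7.9 and 7.3 on the IkL/L GSI arrays. Part of this split was also seen on the DMSO arrays. Replicates 1 and 2 of WT DMSO had Klf4 at 8.65 and 5.32, Ifit3 at 8.34 and 5.39 and stromal means of 7.57 and 6.82. Those of IkL/L DMSO had Ifit3 at 7.11 and 5.58 and stromal means of 7.84 and 6.94, but Klf4 at 4.8 and 4.99. Across probe sets the WT GSI replicates correlated with r = 0.975, with 830 genes over 2-fold apart, and the IkL/L GSI replicates with r = 0.993, with 146 such genes. The 3' minus 5' log2 signal of the GAPDH control probe sets, a measure of RNA integrity, was 2.2 and 3.08 in WT GSI, while IkL/L GSI had 3.09 and 3.03. The Y-linked gene Eif2s3y lay at 2.98 to 3.81 on the 4 WT arrays and at 9.47 to 10.45 on the 4 IkL/L arrays, while Xist lay at 12.57 to 13.02 and 11.4 to 12.05. Eif2s3y and Xist were thus both high on the IkL/L arrays, and the sex makeup of those samples was not settled. The sex of the animals behind the cells and the genotype cannot be told apart, also for genes on the autosomes.

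Ikzf1 itself was examined first, since its level checks the genotype labels. Its brighter probe set had log2 levels of 12.18 and 11.95 in WT GSI, while IkL/L GSI had 11.75 and 11.52. Every IkL/L array was below both WT arrays. The log2 difference of -0.43 ± 0.14 (SE, 2 arrays a group) did not pass (limma, adjusted p = 0.3), and under DMSO it was -0.9 and passed (limma, adjusted p = 0.022). Of the related genes, Ikzf2, which encodes Helios, differed by 0.23 ± 0.28 and Ikzf3, which encodes Aiolos, by 1.34 ± 0.33 (limma, adjusted p = 0.85 and 0.13).

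Under the inhibitor 251 genes differed between the genotypes, with 162 higher and 89 lower in IkL/L cells (limma, Benjamini-Hochberg adjusted p below 0.05). They were 1.44% of the 17405 genes, 0.931% higher and 0.511% lower. At an unadjusted p below 0.05 there were 1857 genes. The median log2 difference was 1.6 among the genes that rose and -1.32 among those that fell, and 218 of the 251 changed at least 2-fold. On the 4 GSI arrays no called gene had overlapping groups. Groups were also apart for genes that did not pass, such as Dtx1, Nrarp and Myc. The share over all genes was not counted, so the separation is no added support for the calls.

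Genes that rose went from a median log2 level of 5.69 in WT to 7.69 in IkL/L cells, and genes that fell from 8.1 to 6.48. Over the 17405 genes the medians were 6.34 and 6.33. Levels also depend on the probe, so these medians describe the arrays and not amounts of transcript. Called genes lay on each of the 19 autosomes, at 0.821% to 3.05% of the genes measured there. Of the 138 called genes with more than 1 probe set, 99 had every probe set on the same side of 0.

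The number of calls moved with single arrays. Without IkL/L GSI replicate 2 it was 94, without IkL/L GSI replicate 1 it was 134, and without either IkL/L DMSO array it was 164. Without WT GSI replicate 1 it was 226, of which 77.4% rose, and without WT GSI replicate 2 it was 218, of which 52.3% rose, against 64.5% with every array. In all 8 fits that left out 1 array, 71 genes were called, 55 higher and 16 lower. Just inside the threshold were Phgdh, Cysltr2 and Parvb (adjusted p = 0.0493, 0.0493 and 0.0498), and just outside were H1f10, Tmem242 and Hhipl2 (adjusted p = 0.051, 0.051 and 0.0514).

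**Figure D1:**
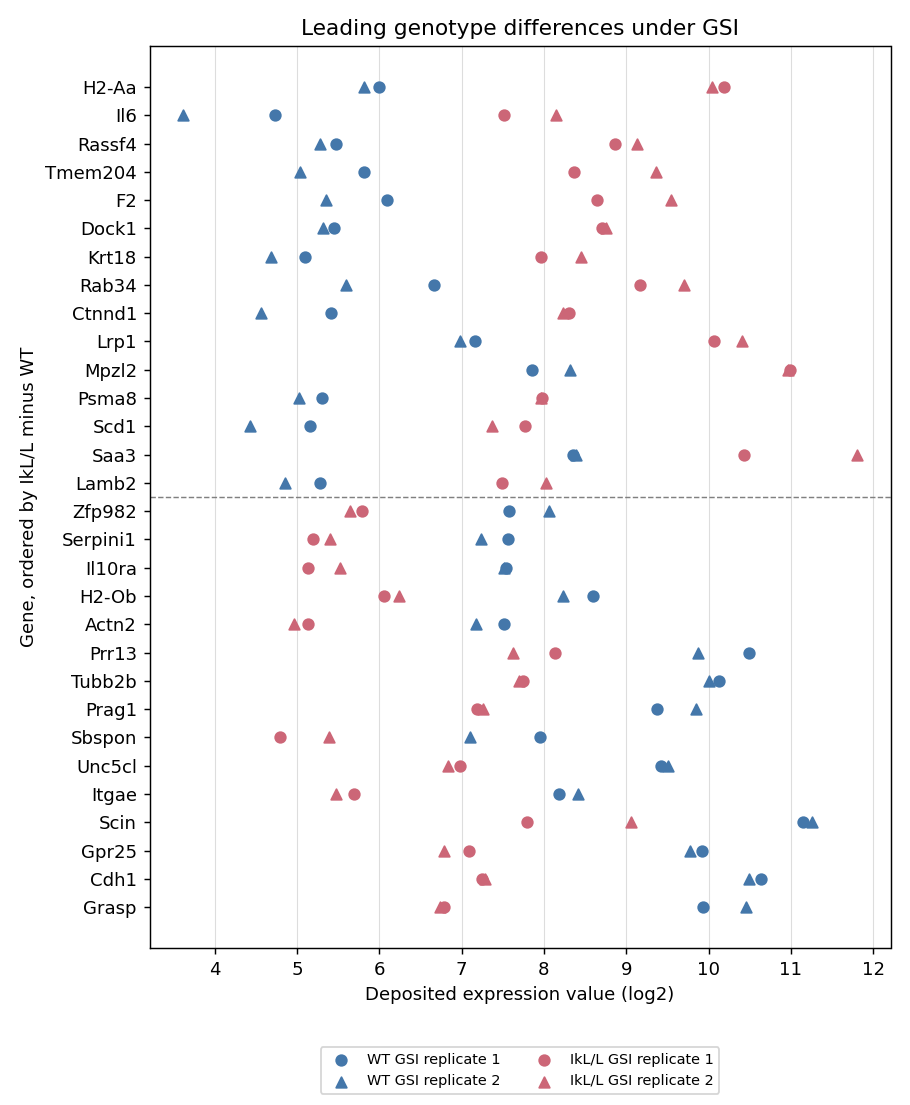
Log2 level (x axis) of the 15 genes that rose most and the 15 that fell most in IkL/L cells under GSI, with 1 point per array and the genes ordered by IkL/L minus WT. The genes were chosen with non-overlapping groups, so the 2 IkL/L points lie on 1 side of both WT points by that choice. The dashed line separates genes that rose from genes that fell.

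The largest increase belonged to H2-Aa, the alpha chain of the MHC class II molecule I-A. Its log2 level was 6.0 and 5.81 in WT GSI, while both IkL/L GSI arrays reached 10.19 and 10.04. The difference of 4.21 ± 0.3 on the log2 scale corresponds to 18.5-fold (limma, adjusted p = 0.0005), and its 4 probe sets lay between 1.39 and 4.21. Next was Il6, which encodes the cytokine interleukin-6, at 4.73 and 3.62 in WT and 7.52 and 8.15 in IkL/L cells, a log2 difference of 3.66 ± 0.35. Both IkL/L arrays were above both WT arrays, as the choice of the leading genes required. Rassf4, a Ras association domain gene, was at 5.47 and 5.28 in WT and 8.86 and 9.13 in IkL/L cells (3.62 ± 0.23). Its 3 probe sets lay between 0.39 and 3.62.

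Dock1, an exchange factor that activates the GTPase Rac, was at 5.45 and 5.32 in WT and 8.7 and 8.75 in IkL/L cells, a log2 difference of 3.34 ± 0.21 (limma, adjusted p = 0.0005). Ctnnd1, which encodes the cadherin-binding p120 catenin, was at 5.41 and 4.56 in WT and 8.3 and 8.23 in IkL/L cells (3.28 ± 0.3). In both genes the groups were well separated, with the IkL/L arrays almost equal. The second probe set of Dock1, however, was at a log2 difference of 0.0, and the probe sets of Ctnnd1 ran from 0.88 to 3.28. Lrp1, an endocytic receptor of the LDL receptor family, was at 7.16 and 6.98 in WT and 10.07 and 10.4 in IkL/L cells (3.16 ± 0.27). Krt18, an epithelial keratin, differed by 3.31 ± 0.21, Lamb2, a laminin chain, by 2.7 ± 0.22, and Mpzl2, a homophilic adhesion protein, by 2.89 ± 0.19. The small GTPase gene Rab34 differed by 3.3 ± 0.4 and was the member of the 15 that lost its call when an array was left out, namely IkL/L GSI replicate 2.

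The other genes among the 15 were of varied function. F2, which encodes prothrombin, differed by 3.37 ± 0.33 and the transmembrane protein gene Tmem204 by 3.44 ± 0.37. Psma8, a proteasome subunit gene of the testis, differed by 2.8 ± 0.23, and Scd1, a fatty acid desaturase gene, by 2.78 ± 0.3. The other probe set of Scd1 was at 0.41. Saa3, an acute-phase gene, was at 8.35 and 8.39 in WT and at 10.43 and 11.8 in IkL/L cells (2.74 ± 0.39). The 15 genes had adjusted p between 0.0005 and 0.014 (limma). Il6, Lrp1 and Lamb2 are also expressed by stromal cells. The mean stromal marker level was highest on WT GSI replicate 1. The 15 genes were chosen with non-overlapping groups, so their lower level on that array was set by the choice. Whether stromal cells contribute to these values was not tested. Fewer cells of a type and less RNA per cell cannot be told apart in such bulk samples.

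Among the genes that fell, Grasp, which encodes a scaffold of receptor trafficking, was at 9.93 and 10.46 in WT and 6.79 and 6.74 in IkL/L cells. Its log2 difference was -3.43 ± 0.24, a 10.8-fold lower level (limma, adjusted p = 0.0005). Cdh1, which encodes the adhesion receptor E-cadherin, was at 10.64 and 10.49 in WT and 7.25 and 7.28 in IkL/L cells (-3.29 ± 0.18). For both genes the IkL/L arrays nearly coincided and lay far below the WT arrays. Itgae, the alpha chain of the integrin that binds E-cadherin, was at 8.18 and 8.41 in WT and at 5.7 and 5.47 in IkL/L cells (-2.71 ± 0.19). The orphan receptor gene Gpr25 was at 9.92 and 9.77 against 7.09 and 6.79 (-2.91 ± 0.19).

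Scin, which encodes an actin-severing protein, was at 11.15 and 11.26 in WT and at 7.79 and 9.06 in IkL/L cells, a log2 difference of -2.78 ± 0.41 (limma, adjusted p = 0.016). Its IkL/L arrays differed from each other by more than the arrays of any other gene that fell in this group, and the call was lost without IkL/L GSI replicate 1 or WT GSI replicate 2. Tubb2b, a beta tubulin gene, differed by -2.34 ± 0.2 and Actn2, an alpha actinin gene, by -2.3 ± 0.2. Il10ra, which encodes the ligand-binding chain of the interleukin-10 receptor, was at 7.54 and 7.51 in WT and 5.13 and 5.52 in IkL/L cells (-2.2 ± 0.18).

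The remaining members had log2 differences between -2.56 and -2.11. They were Unc5cl, a death domain protein gene (-2.56 ± 0.17), Sbspon, which encodes a secreted matrix protein (-2.43 ± 0.29), and Prag1, a pseudokinase gene (-2.39 ± 0.21). Prr13 (-2.31 ± 0.26), the neuronal serpin gene Serpini1 (-2.11 ± 0.18), the zinc finger gene Zfp982 (-2.11 ± 0.21) and H2-Ob (-2.26 ± 0.26) completed the 15. Probe sets of a gene disagreed in sign for Zfp982, where they ran from -2.11 to 0.39, and for Serpini1, from -2.11 to 0.0. They shared a sign but differed in size for Grasp (-3.43 to -0.83), Prag1 (-2.39 to -0.24), Il10ra (-2.2 to -0.35) and Itgae (-2.71 to -1.65). Sbspon was not called without IkL/L GSI replicate 1, Prr13 not without IkL/L GSI replicate 2 and H2-Ob not without either IkL/L GSI array, while the other members outside Scin kept their calls in the 8 fits.

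The promoter sequences of leading genes are shown because Ikaros binds DNA through a core written TGGGAA, and RBPJ through GTGGGAA, which contains it. The 250 bases before the start site are from RefSeq on GRCm38.p6, 5′ to 3′ on the gene's strand, in lower case with each TGGGAA match in capitals (TTCCCA where it lies on the other strand). They are H2-Aa, Il6 and Lrp1, which rose and hold a match, H2-Ob, which fell and holds a match that is also GTGGGAA, and Grasp, which fell and holds none.

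H2-Aa promoter, chr17:34287824-34288073, minus strand: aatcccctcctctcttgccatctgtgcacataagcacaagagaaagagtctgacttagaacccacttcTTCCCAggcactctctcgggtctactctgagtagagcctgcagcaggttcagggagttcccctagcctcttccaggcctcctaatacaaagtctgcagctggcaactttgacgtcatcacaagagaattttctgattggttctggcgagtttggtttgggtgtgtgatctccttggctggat
Il6 promoter, chr5:30012864-30013113, plus strand: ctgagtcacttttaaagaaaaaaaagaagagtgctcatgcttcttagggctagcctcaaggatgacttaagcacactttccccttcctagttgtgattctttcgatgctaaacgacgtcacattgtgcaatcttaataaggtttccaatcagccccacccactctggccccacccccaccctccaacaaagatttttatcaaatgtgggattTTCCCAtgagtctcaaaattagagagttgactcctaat
Lrp1 promoter, chr10:127621149-127621398, minus strand: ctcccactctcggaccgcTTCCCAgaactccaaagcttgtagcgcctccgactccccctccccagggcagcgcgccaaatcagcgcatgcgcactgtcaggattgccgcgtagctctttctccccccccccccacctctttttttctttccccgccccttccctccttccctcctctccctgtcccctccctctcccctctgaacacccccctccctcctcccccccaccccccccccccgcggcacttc
H2-Ob promoter, chr17:34238655-34238904, plus strand: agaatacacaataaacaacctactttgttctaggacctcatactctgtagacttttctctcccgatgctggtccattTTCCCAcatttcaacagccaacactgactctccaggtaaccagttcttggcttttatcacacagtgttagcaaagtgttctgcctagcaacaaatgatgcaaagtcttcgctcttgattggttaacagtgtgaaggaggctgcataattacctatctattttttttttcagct
Grasp promoter, chr15:101223957-101224206, plus strand: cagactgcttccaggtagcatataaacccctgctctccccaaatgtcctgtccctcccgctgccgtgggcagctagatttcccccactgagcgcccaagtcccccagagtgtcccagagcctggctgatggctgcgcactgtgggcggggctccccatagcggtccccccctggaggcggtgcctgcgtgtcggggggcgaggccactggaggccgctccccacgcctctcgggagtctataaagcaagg

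Over both strands TGGGAA was found in 28.0% of the 164 listed promoters of genes that rose, in 20.7% of the 82 of genes that fell and in 21.1% of the 18109 promoters of the genes tested. GTGGGAA was found in 7.93%, 8.54% and 5.49%. Among the leading genes, TGGGAA was found for 4 of the 11 that rose and 2 of the 8 that fell and had a listed promoter, so the printed set holds more matches than the leading genes as a whole. These shares describe letters in a window and were not tested. Of the 18193 genes, 14452 had a listed promoter.

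**Figure D2:**
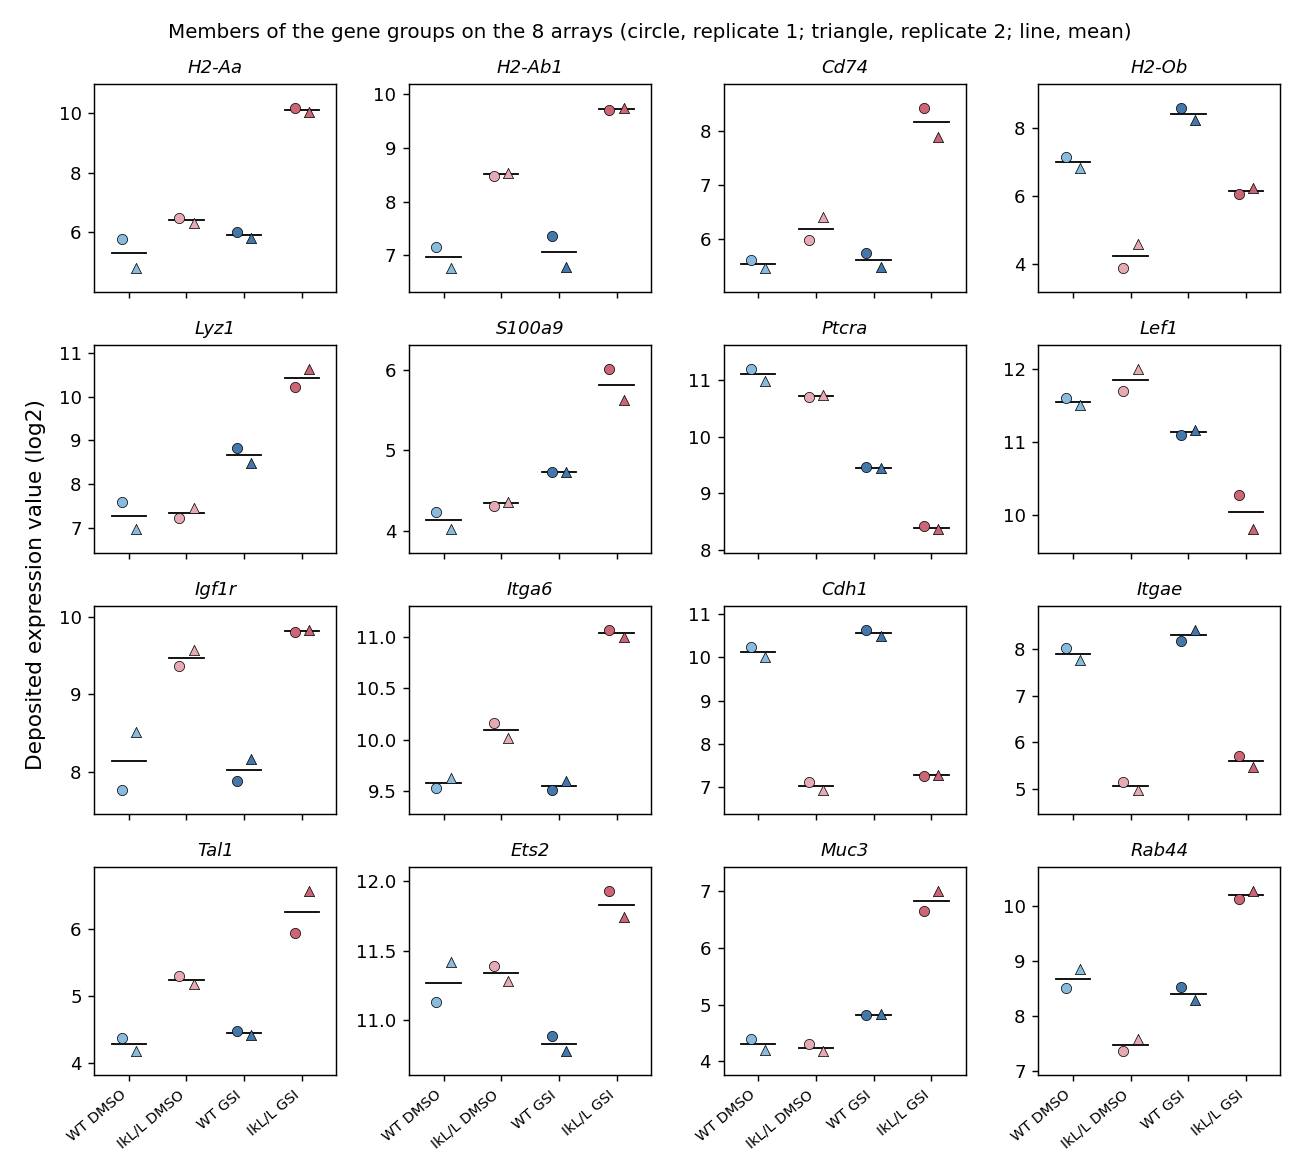
Log2 level (y axis, a scale for each gene) of 16 members of the gene groups described in the text on the 8 arrays, with circles for replicate 1, triangles for replicate 2 and a line at each mean. H2-Aa, Cd74, Lyz1, Muc3 and Itga6 stand highest in the IkL/L GSI group, whereas Cdh1 and Itgae are low in both IkL/L groups.

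The genes were then read by group, using 34 lists with 669 measured members, of which 29 passed (4.33%, beside 1.44% of all genes), 20 of them higher. The lists were drawn up with earlier results of these data known, so the counts are a description. Among list members H2-Aa had the largest difference, followed by Cdh1, Scd1 and Itgae. Of 13 measured MHC class II genes 4 rose and 1 fell, with a list median of 0.08 against -0.04 for all genes. Besides H2-Aa, H2-Ab1, the beta chain of I-A, was at 7.36 and 6.79 in WT and at 9.69 and 9.74 in IkL/L cells (2.64 ± 0.24; limma, adjusted p = 0.0016). Cd74, the invariant chain that escorts class II molecules, was at 5.73 and 5.48 against 8.44 and 7.9 (2.57 ± 0.24). H2-Eb1, the beta chain of I-E and a member chosen after its values were seen, was at 5.39 and 5.4 against 7.88 and 7.26 (2.17 ± 0.23). In each case both IkL/L arrays were above both WT arrays, and the 4 calls were kept in all 8 fits without 1 array.

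The member that fell was H2-Ob, a chain of the H2-O inhibitor of peptide loading, at 8.6 and 8.23 in WT and 6.06 and 6.24 in IkL/L cells. Genes named next were chosen after their values were seen. Ciita, the master activator of class II genes, was between 3.92 and 4.09 on the 4 GSI arrays, below the array medians. Its log2 difference was 0.08 ± 0.11 (limma, adjusted p = 0.89), and that of the class II promoter factor gene Rfx5 was 0.12 ± 0.2. H2-DMa, part of the peptide-loading H2-M, differed by -1.0 ± 0.3 without passing (limma, adjusted p = 0.23).

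Class II molecules are made by B, dendritic and myeloid cells, whose markers were measured too. The myeloid and dendritic list had 26 measured markers, of which 4 rose and the other 22 did not pass. Lyz1, a lysozyme gene, was at 8.82 and 8.49 in WT and 10.22 and 10.64 in IkL/L cells (1.77 ± 0.27; limma, adjusted p = 0.017), and Lyz2 at 7.25 and 6.73 against 8.42 and 8.78 (1.61 ± 0.26). The 3 probe sets of Lyz1 ran from 0.19 to 1.8. S100a8 and S100a9, the calprotectin subunit genes, differed by 1.41 ± 0.26 and 1.08 ± 0.16. The 4 calls fell to 0 without IkL/L GSI replicate 1 or WT GSI replicate 2, to 1 without IkL/L GSI replicate 2, and to 2 without WT GSI replicate 1 or either IkL/L DMSO array. The summed list, as a mean log2 level, was 5.4 and 5.13 in WT and 5.58 and 5.51 in IkL/L cells. Some members with lower levels were chosen after their values were seen. Itgam lay at 2.78 to 3.27, Mpo at 3.94 to 4.41, Cd14 at 4.46 to 4.66 and Csf1r at 5.52 to 5.74. They do not stand for the list, in which 16 of the 26 members had a log2 difference above 0.

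Of 19 B lineage markers Igll1, a surrogate light chain gene, rose, from 6.07 and 6.01 to 7.06 and 7.08 (1.03 ± 0.17; limma, adjusted p = 0.028). Its second probe set was at -0.12. Its call was kept in the 2 fits that left out a WT DMSO array and lost in the other 6. The kinase gene Blk differed by -1.91 ± 0.42 without passing (limma, adjusted p = 0.088). The B cell genes Cd79a, Pax5 and Ms4a1, chosen after their values were seen, lay between 4.05 and 5.2 on the 4 GSI arrays. They do not stand for the list, in which Blk lay between 6.93 and 9.62. Mean levels of the B lineage list were 6.58 and 6.35 in WT and 6.33 and 6.44 in IkL/L cells. Whether cells of these types contribute to the class II values was not tested.

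Notch targets were examined next because the inhibitor had been given to both genotypes. Of 31 measured targets 4 rose and 2 fell, with a median of -0.03. The rise was seen in Uaca, an apoptosome-linked gene, at 7.05 and 6.66 in WT and 8.59 and 9.06 in IkL/L cells (1.97 ± 0.24; limma, adjusted p = 0.0066). Igf1r, the insulin-like growth factor receptor gene, was at 7.89 and 8.17 against 9.8 and 9.83 (1.78 ± 0.26). Its 5 probe sets ran from 0.38 to 1.92. Dtx4, a Deltex ubiquitin ligase gene, differed by 1.22 ± 0.22 and Runx1, a core T lineage transcription factor gene, by 0.92 ± 0.16.

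The Notch targets that fell were genes of T cell development. Ptcra, the invariant chain of the pre-T cell receptor, was at 9.46 and 9.44 in WT and at 8.42 and 8.37 in IkL/L cells, a log2 difference of -1.06 ± 0.15 (limma, adjusted p = 0.015). Lef1, an HMG box transcription factor gene, was at 11.1 and 11.16 against 10.27 and 9.81 (-1.09 ± 0.18; limma, adjusted p = 0.028). In both genes the WT arrays nearly coincided and both IkL/L arrays lay lower. Without IkL/L GSI replicate 2 none of the 6 Notch target calls was kept. Uaca and Igf1r kept theirs without either IkL/L DMSO array, and Uaca and Lef1 without IkL/L GSI replicate 1. Ptcra and Uaca kept theirs without any single WT array, with Dtx4 kept besides them without WT GSI replicate 1 and Igf1r without each of the other 3.

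Of the classical readouts of Notch activity, Ptcra passed, as given above, while Hes1, Dtx1, Nrarp, Myc and Il2ra did not. Hes1, a repressor gene directly bound by RBPJ, was at 8.49 and 7.31 in WT and 7.53 and 8.83 in IkL/L cells, and the groups overlapped (0.28 ± 0.48; limma, adjusted p = 0.91). Dtx1, a Deltex gene, differed by -0.58 ± 0.2 and the feedback inhibitor gene Nrarp by -0.51 ± 0.22 (limma, adjusted p = 0.3 and 0.47). Myc was at 9.49 and 8.57 against 8.09 and 6.14, with the lowest level on IkL/L GSI replicate 2 (-1.91 ± 0.57; limma, adjusted p = 0.23). Il2ra differed by -0.15 ± 0.15. Among receptors Notch1 differed by 0.16 ± 0.13 and Notch3 by -0.21 ± 0.3. None of 31 Notch pathway components passed, nor had any an unadjusted p below 0.05 (limma). The largest differences there were those of Kdm5a, a histone demethylase gene (0.7 ± 0.34), and Ncstn, the gamma-secretase subunit nicastrin (0.41 ± 0.52).

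Transcription factors of T lineage commitment moved in both directions, with 2 of 20 higher, 2 lower and a median of 0.01. Ets2, an ETS family gene, was at 10.89 and 10.78 in WT and 11.93 and 11.74 in IkL/L cells (1.0 ± 0.15; limma, adjusted p = 0.015). Tox2, an HMG box gene, was at 7.43 and 7.67 against 6.34 and 5.97 (-1.4 ± 0.2; limma, adjusted p = 0.014). Runx1 and Lef1, given above, were the other members. Probe sets of a gene shared a sign but differed in size for Ets2 (0.16 to 1.0), Runx1 (0.04 to 1.14) and Tox2 (-1.4 to -0.41). Ets2 was not called without either IkL/L GSI array or WT GSI replicate 2, Tox2 not without IkL/L GSI replicate 2 or WT GSI replicate 2, Runx1 in none of the 8 fits, and Lef1 in none but the fit without IkL/L GSI replicate 1. Of 14 E protein and Id genes Tal1, which encodes a factor of blood progenitors that pairs with E proteins, rose from 4.48 and 4.42 to 5.94 and 6.56 (1.8 ± 0.2; limma, adjusted p = 0.0047). Its call was kept in all 8 fits. Id3, an inhibitor of E proteins, was at 10.05 and 9.9 against 9.11 and 8.5 and just missed the threshold (-1.17 ± 0.23; limma, adjusted p = 0.056).

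Progenitor genes other than Tal1 did not pass among the 26 measured. The largest was Lyl1, a relative of Tal1 (0.79 ± 0.25). Pre-T cell receptor signalling held 23 genes, of which Ptcra fell, and the largest of the others was the adhesion receptor gene Cd2 (1.33 ± 0.56; limma, adjusted p = 0.45). None of 11 V(D)J recombination genes passed, with Hmgb2 at 0.43 ± 0.13 and Xrcc5 at -0.43 ± 0.26. None of 18 genes of later thymocytes passed either. There Cd4 was at 6.11 and 6.56 in WT and at 7.88 and 7.36 in IkL/L cells (1.29 ± 0.25; limma, adjusted p = 0.0527), and Ly6d at 10.56 and 9.31 against 7.94 and 8.18 (-1.87 ± 0.39; limma, adjusted p = 0.068).

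Of 24 adhesion and chemokine receptor genes 2 rose and 2 fell, with a median of -0.01, and the 4 calls were kept in each of the 8 fits without 1 array. Itga6, the laminin-binding integrin chain, was at 9.51 and 9.6 in WT and 11.07 and 11 in IkL/L cells (1.48 ± 0.15; limma, adjusted p = 0.003). Ctnna1, the alpha catenin that ties cadherins to actin, was at 10.43 and 10.5 against 11.84 and 11.79 (1.35 ± 0.12), although 1 of its 4 probe sets was at -0.12. Cdh1 and Itgae, given above, were the members that fell. The chemokine receptor gene Ccr9 was at 12.94 and 13.2 in WT and 13.03 and 12.93 in IkL/L cells, with overlapping groups (-0.09 ± 0.13; limma, adjusted p = 0.88).

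Of 33 cytokine receptor and signalling genes Il10ra fell, and the largest of the others was the signalling inhibitor gene Socs2 (1.19 ± 0.36; limma, adjusted p = 0.24). Of 28 natural killer, innate lymphoid and cytotoxic genes Il17rb, an interleukin-25 receptor chain, fell from 10.68 and 10.71 to 9.88 and 9.36 (-1.07 ± 0.2; limma, adjusted p = 0.041). It kept its call in the fit without IkL/L GSI replicate 1 and in none of the other 7. Id2 there differed by -1.08 ± 0.56. Tfrc, the transferrin receptor gene, was at 11.34 and 11.16 in WT and at 10.25 and 9.87 in IkL/L cells (-1.19 ± 0.17; limma, adjusted p = 0.015). It was the member of 8 genes of the erythroid list that passed, and the call was lost without IkL/L GSI replicate 2 or WT GSI replicate 1. The 3 probe sets of Tfrc ran from -1.19 to -0.44. The next largest in the erythroid list was Car2, a carbonic anhydrase gene (0.48 ± 0.28).

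Metabolic lists held few calls. Of 22 genes of the ATF4 response 2 rose, namely Slc7a11, the cystine transporter gene, from 4.21 and 4.61 to 5.67 and 5.49 (1.17 ± 0.16; limma, adjusted p = 0.014), and Phgdh, the first enzyme of serine synthesis, from 12.34 and 12.19 to 12.79 and 12.85 (0.55 ± 0.1; limma, adjusted p = 0.0493). Slc7a11 was not called without either IkL/L GSI array, and Phgdh in none of the 8 fits. The other probe set of Slc7a11 was at 0.36. Of 20 genes of cholesterol and lipid synthesis Scd1 rose, and Fdps was next (0.5 ± 0.34). None of 20 glycolysis genes passed, with Ldhb at -0.89 ± 0.18 (limma, adjusted p = 0.058) and Aldoc at 0.5 ± 0.47.

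Genes of division differed by small amounts without passing. Of 31 genes of G2 and mitosis, 30 lay above 0, with a median log2 difference of 0.49 and 16 at an unadjusted p below 0.05, yet none passed after adjustment (limma). Ccnb2, a mitotic cyclin gene, was at 10.68 and 9.87 in WT and 11.07 and 11.25 in IkL/L cells (0.88 ± 0.27; limma, adjusted p = 0.24), and the anaphase activator gene Cdc20 differed by 0.82 ± 0.34. WT GSI replicate 2 held the lowest level of 27 of the 31 genes. Without that array the median was 0.26, with 28 above 0, and without WT GSI replicate 1 it was 0.7. The list median under DMSO was 0.55. Of 32 genes of the G1/S transition none passed, with a median of -0.02, the largest being Ccne1 (-1.11 ± 0.52) and E2f2 (-0.7 ± 0.18). None of 16 cyclin and cyclin-dependent kinase inhibitor genes passed, with Cdkn2c at -0.64 ± 0.32 and Ccnd1 at -0.45 ± 0.29, nor did Cdkn1a (0.28 ± 0.15).

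Ribosome biogenesis, a programme driven by Myc, had a median of -0.23 over 33 genes, with Rrp12 at -1.43 ± 0.43 and Nop58 at -0.71 ± 0.56, and no call. Interferon-stimulated genes had a median of -0.49 over 26 and immediate early genes one of -0.49 over 21, also without a call. In both lists WT GSI replicate 1 held the highest mean log2 level, 10.18 for interferon-stimulated genes against 8.85 on replicate 2 and 9.45 and 8.72 in IkL/L cells, and 8.45 for immediate early genes against 6.79, 7.17 and 7.15. Ifit3 (-1.4 ± 1.31), Klf4 (-2.13 ± 1.53) and Dusp5 (-1.17 ± 0.68) turned sign without that array, to 0.5, 0.44 and 0.09. The interferon-inducible GTPase gene Gbp3 differed by 1.26 ± 0.32 (limma, adjusted p = 0.14).

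The other lists without a call had these largest members. In the Ikaros family and NuRD list, 21 genes, Ikzf3, given above, was followed by the NuRD subunit gene Gatad2b, which differed by -0.85 ± 0.2 (limma, adjusted p = 0.11). Among 17 Polycomb genes Cbx8 differed by 0.37 ± 0.22 and Cbx7 by -0.3 ± 0.19. Among 23 FOXO and quiescence genes Klf2 was second to Klf4 (-0.8 ± 0.71), and among 20 p53 targets Pmaip1, which encodes the death activator NOXA, differed by 1.59 ± 0.31 (limma, adjusted p = 0.058) and Gtse1 by 0.79 ± 0.2. Pmaip1 also led 16 cell death genes, followed by the inhibitor gene Birc3 (0.98 ± 0.27). Among 22 costimulation and checkpoint genes Ly9 differed by -1.26 ± 0.46 and Cd96 by -1.25 ± 0.25 (limma, adjusted p = 0.35 and 0.064). Among 14 gamma-delta T cell genes Blk and Id3 were largest, among 14 heat shock genes Hspa1b (1.29 ± 0.59) and Hspa1a (0.91 ± 0.5), high on IkL/L GSI replicate 2, and among 11 ribosomal protein genes Rps9 (-0.2 ± 0.1) and Rps6 (-0.16 ± 0.23).

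No stromal marker passed among 29, with a median of 0.19. The mean level on WT GSI replicate 1 exceeded both IkL/L arrays, and that on WT GSI replicate 2 was below both. The largest were Vcam1 (1.66 ± 0.57) and Col3a1, a collagen gene (1.59 ± 0.77), neither of which passed (limma, adjusted p = 0.31 and 0.52). Mean levels of the erythroid, gamma-delta T, and natural killer lists were 5.7 to 6.02, 6.49 to 6.97 and 5.13 to 5.5 on the 4 GSI arrays.

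**Figure D3:**
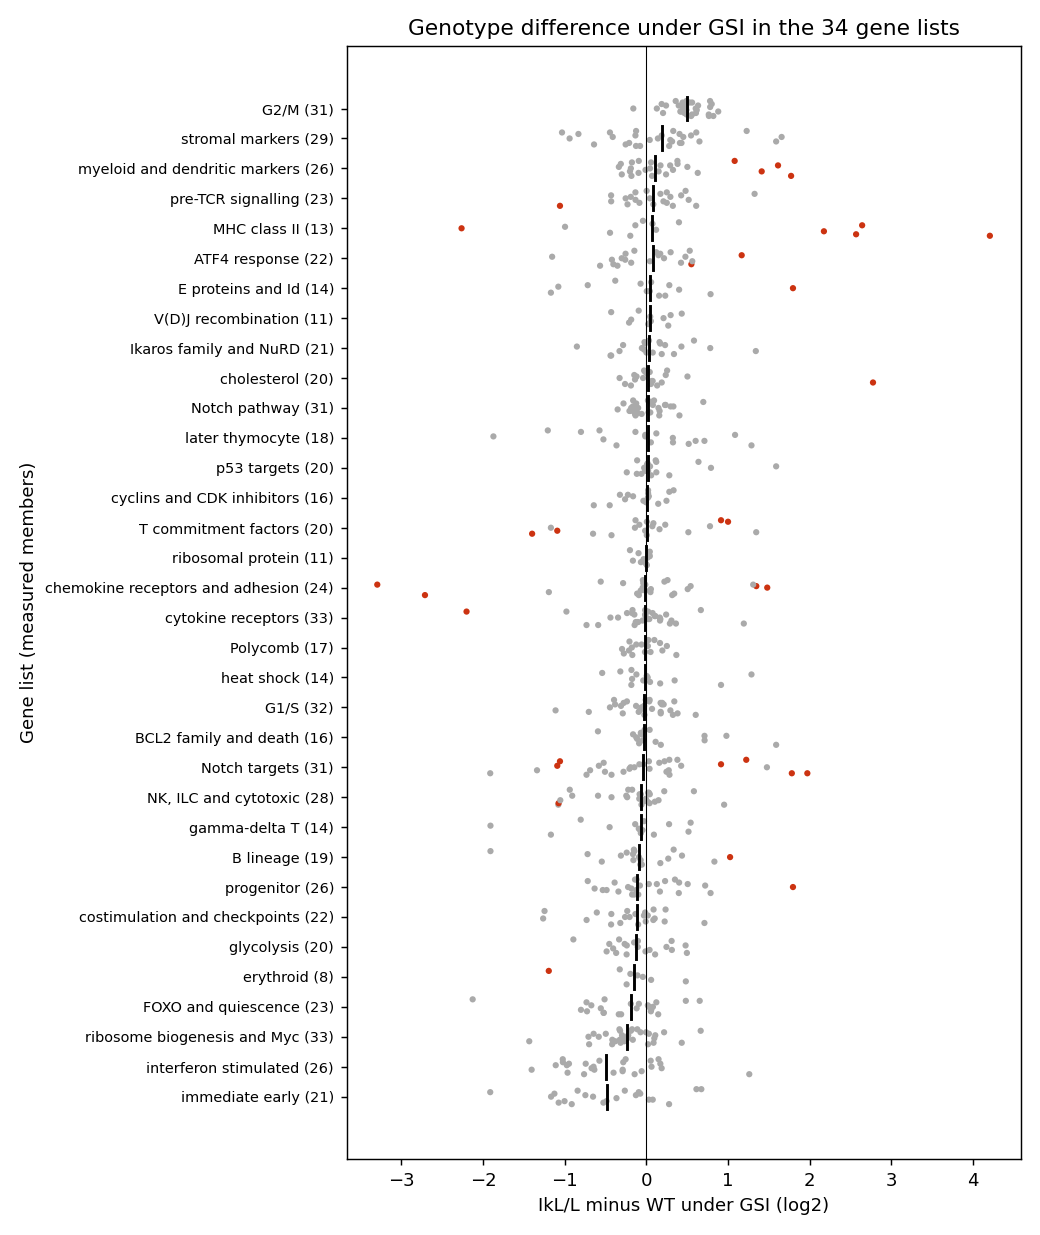
Log2 difference, IkL/L minus WT under GSI (x axis), of the measured members of each of the 34 lists (y axis, member number in brackets), with red points for genes that passed, grey points for the others and a bar at the list median. List medians lie between -0.49 and 0.49, and the largest differences are those of H2-Aa and, below 0, Cdh1.

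The genotype difference under the inhibitor was then set beside that under DMSO, which shares no arrays with it but shares the model's estimate of the spread. Under DMSO 288 genes were called (1.65%), 115 higher (0.661%) and 173 lower (0.994%). That count was 67 without IkL/L DMSO replicate 1, 69 without IkL/L DMSO replicate 2, 94 and 84 without WT DMSO replicate 1 and 2, and 188 without IkL/L GSI replicate 2. A set of 115 genes was called in both, 45.8% of the calls under GSI and 39.9% of those under DMSO, and 114 of them in the same direction, 68 higher and 46 lower. Among genes called in both, the median log2 difference was 1.89 under GSI and 1.71 under DMSO for those that rose, and -1.65 and -1.76 for those that fell. Of the 251 genes called under GSI, 237 had the same sign under DMSO. Across genes, called or not, the log2 differences under GSI and under DMSO also correlated (Pearson r = 0.55). How many of all genes shared a sign was not counted, so the 237 cannot be read as particular to the called genes.

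Among the leading genes 13 of the 15 that rose and 12 of the 15 that fell were also called under DMSO in the same direction. Dock1 differed by 3.97 under DMSO and 3.34 under GSI, Cdh1 by -3.09 and -3.29, Itgae by -2.84 and -2.71, and Scin by -5.27 and -2.78. H2-Aa was at 5.78 and 4.81 in WT DMSO and 6.5 and 6.33 in IkL/L DMSO, a log2 difference of 1.12 that did not pass (limma, adjusted p = 0.15), beside 4.21 under GSI. H2-Ab1 rose under DMSO too, by 1.54 (limma, adjusted p = 0.02), whereas Cd74 differed by 0.65 and Lyz1 by 0.06 without passing. The difference between the 2 genotype effects did not pass for Cd74 (1.91 ± 0.33; limma, adjusted p = 0.22) or Lyz1 (1.72 ± 0.38; limma, adjusted p = 0.4), nor for H2-Aa (limma, adjusted p = 0.096).

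Although 136 genes were called under GSI and not under DMSO, the difference of the genotype effects passed for 2 of them. In all it passed for 8 genes (0.046% of genes; limma, with 1044 at an unadjusted p below 0.05), 5 with a more positive genotype difference under GSI (0.0287%) and 3 with a more negative one (0.0172%). Muc3, a membrane mucin gene, was at 4.81 and 4.83 in WT GSI cells but at 6.65 and 7.01 in IkL/L GSI cells, with means of 4.3 and 4.24 under DMSO. Mctp1, which encodes a calcium-binding membrane protein, was at 4.08 and 3.87 against 5.95 and 5.92 under GSI, with means of 3.85 and 4.15 under DMSO. For both genes the IkL/L GSI arrays stood above the other 6 arrays. Rab44, a large Rab GTPase gene, was the gene called in both with opposite directions, 1.79 ± 0.2 under GSI and -1.21 ± 0.2 under DMSO, and its call under GSI was lost without IkL/L GSI replicate 2. Without WT GSI replicate 1 the number of genes in this test was 5, without any other single array it was 0 to 2.

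The other 5 genes differed between the genotypes under DMSO and not under GSI. Ccr9 and Atp8b4, a phospholipid flippase gene, were lower in IkL/L cells by -2.11 and -1.96 under DMSO and differed by -0.09 each under GSI. Gm266, Exoc3l4 and 2810459M11Rik were higher by 3.89, 3.0 and 2.05 under DMSO and differed by 0.37, 0.26 and 0.09 under GSI. In IkL/L GSI cells Gm266 lay at 3.24 and 3.77, against 3.22 and 3.05 in WT GSI, and 7.18 as the mean of IkL/L DMSO.

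**Figure D4:**
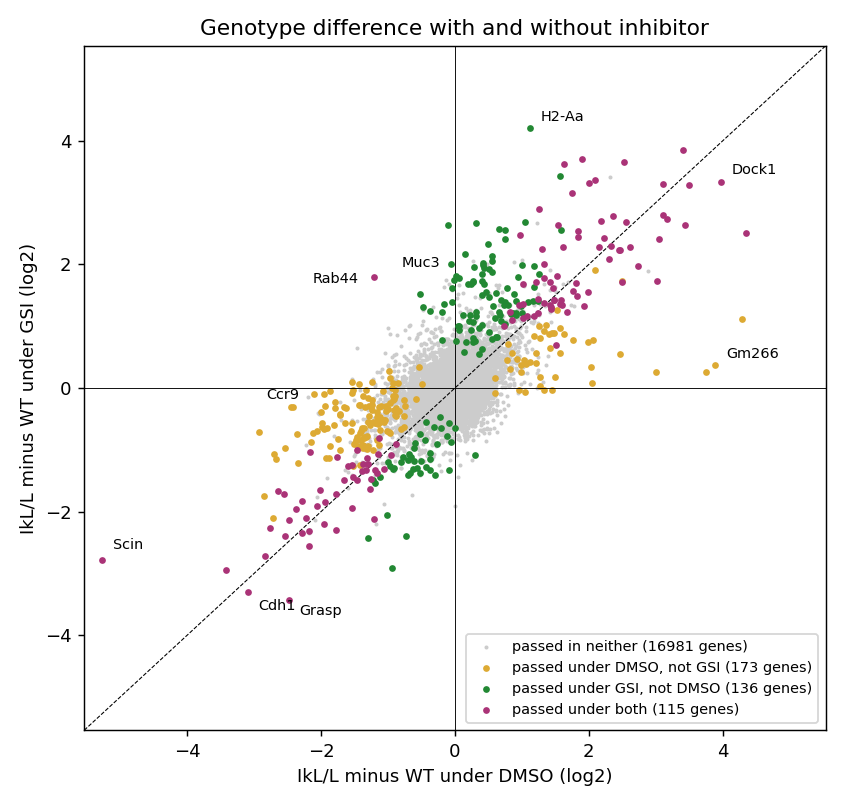
Log2 difference, IkL/L minus WT, under DMSO (x axis) and under GSI (y axis) for the 17405 genes, coloured by the comparison in which each passed, with the dashed line at equal differences. The 115 genes that passed in both lie at the lower left and upper right, except Rab44 at the upper left.

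Genes near Ikzf1 were also looked at, since the mutant allele lies there. Of 17 measured genes among the 10 on each side in RefSeq's order on chromosome 11, 1 passed. It was Ddc, which encodes the aromatic amino acid decarboxylase, the second gene from Ikzf1, named after its values were seen. Ddc was at 5.76 and 5.8 in WT GSI cells but at 3.8 and 3.87 in IkL/L GSI cells, a log2 difference of -1.95 ± 0.14 (limma, adjusted p = 0.00065), and it was also lower under DMSO. Its other probe set was at -0.19 under GSI. The gene between Ddc and Ikzf1, Fignl1, was at 9.34 and 9.48 against 9.7 and 8.89.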

How the data were processed

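RNA of sorted DN3 cells was labelled in a two-cycle assay per the labels' protocols and hybridised to Affymetrix mouse arrays. The deposited values are log2 values that the authors made with RMA, per the submitters' processing notes. The annotation and version behind them are not given in the sources used here. RMA normalizes arrays by quantiles, so differences are relative to the bulk of probe sets.

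Groups came from the sample titles. The arrays held 45101 probe sets. Left out were 64 controls, 932 that name several genes and 9160 with no listed gene. For 9010 genes with several probe sets, the one with the highest mean was used, giving 18193 genes with no filter on dim values. Of these, 626 on X or Y and 162 with no chromosome in RefSeq are not reported, leaving 17405.

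The model was fitted in R 4.3.3 with limma 3.58.1 (lmFit, contrasts.fit and a trended eBayes) on 8 arrays with 4 groups, 4 residual and 4.11 prior degrees of freedom. P-values were two-sided, adjusted by Benjamini-Hochberg over 18193 genes and called below 0.05, and the code was tested on simulated data. Errors are moderated standard errors (SE). Precision is limited by having 2 arrays a group.

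The members, the 34 gene lists and the tests were chosen with earlier results of these data known. Of 747 genes in the lists 669 were measured. The rule named the 15 largest increases and decreases among called genes with non-overlapping groups, without Rik, LOC, accession and Gm-number symbols. From each list it named up to 4 members that passed, or the 2 largest where fewer than 2 passed. It also took 13 Ikaros, Notch and related genes always, the genes of the difference of effects, and the 3 genes on each side of the threshold.

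Alternatives were a replicate block, a mean over probe sets, every probe set, genes above the median level, a second quantile normalization, centring, no trend, the 4 GSI arrays alone, a 2-fold minimum and the removal of single arrays. A group left with 1 array was assumed to vary like the others. Tables and plots used Python 3.11.15, pandas 2.3.3, numpy 2.4.6 and matplotlib 3.10.9.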

Additional observations from a re-analysis of the deposited data

Results flagged for a closer look

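The 8 genes whose genotype difference under GSI departed from that under DMSO by a test of the difference itself (limma, adjusted p below 0.05) were looked at again. The difference of the 2 effects was 3.0 on the log2 scale for Rab44, 2.07 for Muc3, 2.02 for Ccr9, 1.87 for Atp8b4 and 1.67 for Mctp1. It was -3.52 for Gm266, -2.74 for Exoc3l4 and -1.97 for 2810459M11Rik. In fits that left out 1 array the test passed for 0 to 5 genes. The test for a sample far from its group needs at least 4 samples and was not run.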

How the results depend on the processing

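Under GSI the 251 calls were 213 to 302 with a second quantile normalization, centring, probe-set means, every probe set, no trend, a 2-fold minimum or both WT arrays numbered 1 left out. They were 146 among genes above the median level and 93 with the 4 GSI arrays alone. Without 1 array they were 94 to 226, under DMSO 67 to 394 and for the difference of effects 0 to 5. With the replicate block they were 446 under GSI, 500 under DMSO and 24 for the difference, beside 251, 288 and 8 without it, and the 251 genes stayed called. The labels do not say what a number shares. Deviations of same-numbered arrays correlated at 0.56 to 0.71 among WT DMSO, WT GSI and IkL/L DMSO and at -0.11 to 0.02 between these and IkL/L GSI, so pairing was not settled. Fits added after seeing the data gave 463 under GSI without both WT arrays numbered 2, 700 under GSI, 742 under DMSO and 51 for the difference with the stromal level as a covariate, and 755, 997 and 63 with the GAPDH difference. The difference of effects held 2 genes without a trend, with every probe set or above the median level, and 0 without both WT arrays numbered 1 or both numbered 2. The cause of these shifts was not tested.

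No named gene that passed changed sign, and 29 of the 55 were called in every refit. Genes that had not passed changed sign under GSI when 1 array was left out. The log2 difference then ran from -0.04 to 0.21 for 2810459M11Rik, -0.11 to 1.11 for Aldoc, -0.24 to 0.05 for Atp8b4, -0.22 to 0.04 for Ccr9, -2.42 to 0.09 for Dusp5, -0.01 to 1.02 for Fdps, -0.36 to 0.93 for Hes1, -0.03 to 1.86 for Hspa1a, -3.3 to 0.5 for Ifit3, -2.08 to 0.48 for Klf2, -4.69 to 0.44 for Klf4, -0.29 to 1.1 for Ncstn, -0.59 to 0.18 for Notch3 and -0.43 to 0.1 for Rps6. Leaving out both WT arrays of a number gave -0.04 for 2810459M11Rik, -0.11 for Aldoc, 0.04 for Ccr9, 0.09 for Dusp5, -0.01 for Fdps, -0.3 for Hes1, 0.5 for Ifit3, 0.48 for Klf2, 0.44 for Klf4, -0.29 for Ncstn, 0.18 for Notch3 and 0.1 for Rps6. With the GAPDH difference as a covariate Ifit3 was at 0.34, Ikzf2 at -0.07, Klf2 at 0.09, Ncstn at -0.3 and Rps6 at 0.1. With probe-set means Atp8b4 was at 0.05 and Rps9 at 0.01.

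Limits are the 2 arrays a group, the unsettled sex makeup that goes with the genotype, and WT GSI replicate 1, which stood apart. Both DMSO arrays numbered 1 shared part of that split. Values near the lowest measured, 2.32 on the log2 scale, where differences are compressed, are a further limit. The DMSO arrays set part of the spread used under GSI.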
